A study of Mus musculus with 18 samples.

Results

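The 7 genes described here are the mouse early growth response factors Egr1, Egr2, Egr3 and Egr4 and the orphan nuclear receptors Nr4a1, Nr4a2 and Nr4a3, chosen by family membership from 32285 gene identifiers in the deposited count table. Their RNA was followed in fibroblasts sorted from the paws of wild type mice, in 6 groups of 3 libraries each. In 2 groups the donors had STIA, an arthritis that follows transfer of serum from K/BxN mice. One of these was cultured with 50 ng/mL osteopontin (OPN), an extracellular protein that cells sense through integrins and CD44, and the other was left unstimulated. The remaining 4 groups came from naive mice. Their cells were cultured with the mitogen FGF2 (10 ng/mL) plus OPN (50 ng/mL), with FGF2 alone, with OPN alone, or without a factor. Stimulation lasted 3 days. Thus a value of an early response gene here is its level after prolonged exposure, and the first hours after addition were not sampled. The sources used here give neither the age of the mice nor how long the unstimulated cells were cultured. Nothing in the labels ties a replicate to its own mouse or culture, so every p-value measures only the spread between these samples.

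Early response genes are switched on by signals without the need for new protein synthesis. Growth factor signals that run through ERK reach the Egr genes largely through serum response factor (SRF) and its Elk partners, which bind CArG boxes, whereas the Nr4a genes are classic targets of cyclic AMP, CREB and MEF2. EGR proteins are zinc finger factors that bind GC-rich DNA, and the co-repressors NAB1 and NAB2 hold their activity in check. NR4A proteins have no open ligand pocket, so that their activity depends mainly on how much of them is made. In inflamed human synovium EGR1 and NR4A2 are both known to be abundant.

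The 7 members lie on separate chromosomes of GRCm38. In the deposited annotation Egr2 spans chr10:67535475-67542188, Egr3 chr14:70077203-70082614 and Egr4 chr6:85511121-85513589. The Nr4a genes span chr15:101254269-101274795 (Nr4a1), chr2:57106830-57124003 (Nr4a2) and chr4:48045153-48086447 (Nr4a3). Egr4 and Nr4a2 are on the minus strand and the others on the plus strand. Counts are sums over all exons of a gene, and no annotated gene overlaps a member. RefSeq start-site windows, from 250 bases before to 50 after a start, were supplied for 5 of the 7 members.

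The windows of 4 members are shown because they carry the classic elements through which early response genes are switched on, and because the genes behind them differed widely in what OPN and FGF2 did to them. Each line gives bases before the RefSeq start site (build GRCm38.p6), 5′ to 3′ on the gene's own strand. Capitals mark the CRE core, TGACG on either strand, which CREB family proteins bind, and in Egr2 also the CArG box. The Nr4a1 bases are chr15:101266596-101266845 (plus strand), the Nr4a2 bases chr2:57124004-57124253 (minus strand), the Nr4a3 bases chr4:48045055-48045152 (plus strand, ending where the deposited gene begins) and the Egr2 bases chr10:67537619-67537868 (plus strand, before the start at 67537869). The Nr4a1 and Egr2 windows lie inside the deposited span of their genes, before an internal start.
Nr4a1: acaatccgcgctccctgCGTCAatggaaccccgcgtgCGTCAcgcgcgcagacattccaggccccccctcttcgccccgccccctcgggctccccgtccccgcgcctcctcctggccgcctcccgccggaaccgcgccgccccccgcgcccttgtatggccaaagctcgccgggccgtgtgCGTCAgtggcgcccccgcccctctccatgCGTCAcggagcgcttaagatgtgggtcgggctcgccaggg
Nr4a2: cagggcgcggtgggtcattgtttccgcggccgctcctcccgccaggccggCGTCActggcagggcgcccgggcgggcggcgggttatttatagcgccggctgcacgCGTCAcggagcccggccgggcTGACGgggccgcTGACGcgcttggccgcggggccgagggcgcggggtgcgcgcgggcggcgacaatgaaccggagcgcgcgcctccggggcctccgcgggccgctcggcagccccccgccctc
Nr4a3: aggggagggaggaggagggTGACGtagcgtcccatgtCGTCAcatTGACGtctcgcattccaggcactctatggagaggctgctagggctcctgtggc
Egr2: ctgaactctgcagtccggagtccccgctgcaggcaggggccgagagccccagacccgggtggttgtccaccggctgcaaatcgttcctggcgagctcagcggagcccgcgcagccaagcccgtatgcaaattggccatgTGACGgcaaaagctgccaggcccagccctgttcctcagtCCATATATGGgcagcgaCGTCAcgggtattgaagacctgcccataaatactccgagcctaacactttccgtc

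The windows of Nr4a1, Nr4a2 and Nr4a3 each held 4 CRE cores, 3 of which fall in the printed stretch of Nr4a3. At least 4 cores were found in 76 of 32851 RefSeq windows (0.231%), and at least 1 core in 20.8%. The Egr2 window shown held 2 CRE cores with 1 CArG box between them, and a CArG box was found in 1.63% of windows. Overlapping windows of the Egr2 starts at 67537870 and 67537930 held the same elements. The window of the Egr2 start at 67537566 held 1 CArG box and no core. That of the start at 67535499, near the 5′ end of the deposited gene, held neither element. The Egr4 window held 2 cores and no CArG box. An EGR element (GCGNGGGCG on either strand) was found once each in the windows of Nr4a1 and Nr4a2, against 5.55% of all windows. Neither the full CRE palindrome (TGACGTCA, 1.79% of windows) nor the NGFI-B response element that NR4A monomers bind (AAAGGTCA, 1.51%) was found in any member's window. These matches are letters in a window and not measured binding.

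Library totals ran from 27527043 to 40357342 counts. Levels are counts scaled to library size (CPM) on library sizes scaled by TMM, a method that evens out differences in RNA composition, and TPM values, which also divide by exon length, are used wherever genes are compared with each other. Tests were run with edgeR's quasi-likelihood method on 15072 genes that passed a filter on low counts, and called means a p below 0.05 after Benjamini-Hochberg adjustment. Of the 7 members 6 were tested. Egr4 did not pass the filter. Fibroblast markers were present in every library: the lowest level was 3724 CPM for Col1a1, a collagen chain, and 275 CPM for Pdgfrb, a growth factor receptor. The T cell genes Cd3d, Cd3e and Cd3g and the neutrophil gene S100a9 had no count in any library, and the leukocyte gene Ptprc did not exceed 0.253 CPM. Other genes of these lists were detected: Trac averaged 2.4 CPM in unstimulated STIA cells and 0.937 CPM in unstimulated naive cells, and Ly6g averaged 2.15 CPM with FGF2 and 0.0112 CPM in unstimulated naive cells. The 10 fibroblast markers together ranged from 21921 to 23808 CPM on plain totals with FGF2 and from 69802 to 77895 CPM in unstimulated naive cells, and the 8 macrophage markers from 47.6 to 52.8 CPM with FGF2 and from 12.7 to 14.2 CPM in unstimulated naive cells. The fibroblast sum followed mostly Col1a1, which averaged 4177 CPM with FGF2 and 35894 CPM in unstimulated naive cells. Of the 10 fibroblast markers, 6 were called lower with FGF2 and 2 higher, Vim (0.79 ± 0.07) and Pdgfra (0.32 ± 0.08). The macrophage sum followed Cd14, which averaged 44.9 CPM with FGF2 and 5.85 CPM in unstimulated naive cells. Of the 4 macrophage markers tested, Cd14 and Cd68 were called higher with FGF2 and Csf1r (-2.59 ± 0.23) and Lyz2 (-2.73 ± 0.28) lower. The part of these shifts in the members' levels was not tested.

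Per exon length, Egr1 was the most abundant member in all 6 groups, and Nr4a1 came next in all but the OPN group, where Nr4a1 and Nr4a2 averaged the same. In unstimulated naive cells Egr1 averaged 354 ± 18 TPM, Nr4a1 104 ± 2.55, Nr4a2 25.3 ± 1.91, Egr2 19.9 ± 1.09, Egr3 9.51 ± 0.298, Nr4a3 1.17 ± 0.0416 and Egr4 0.201 ± 0.121 TPM (SD, n = 3). Egr4, a neuronally expressed member, was barely detected in any group. Its counts summed over 3 libraries were 17 in STIA cells with OPN, 30 in unstimulated STIA cells, 14 with FGF2 plus OPN, 19 with FGF2, 13 with OPN and 10 in unstimulated naive cells, and 2 libraries had none. Fitted without the low-count filter, Egr4 was called in none of the 11 comparisons. Its log2 fold change between unstimulated STIA and naive cells was 1.51 (edgeR adjusted p = 0.156).

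**Figure D1:**
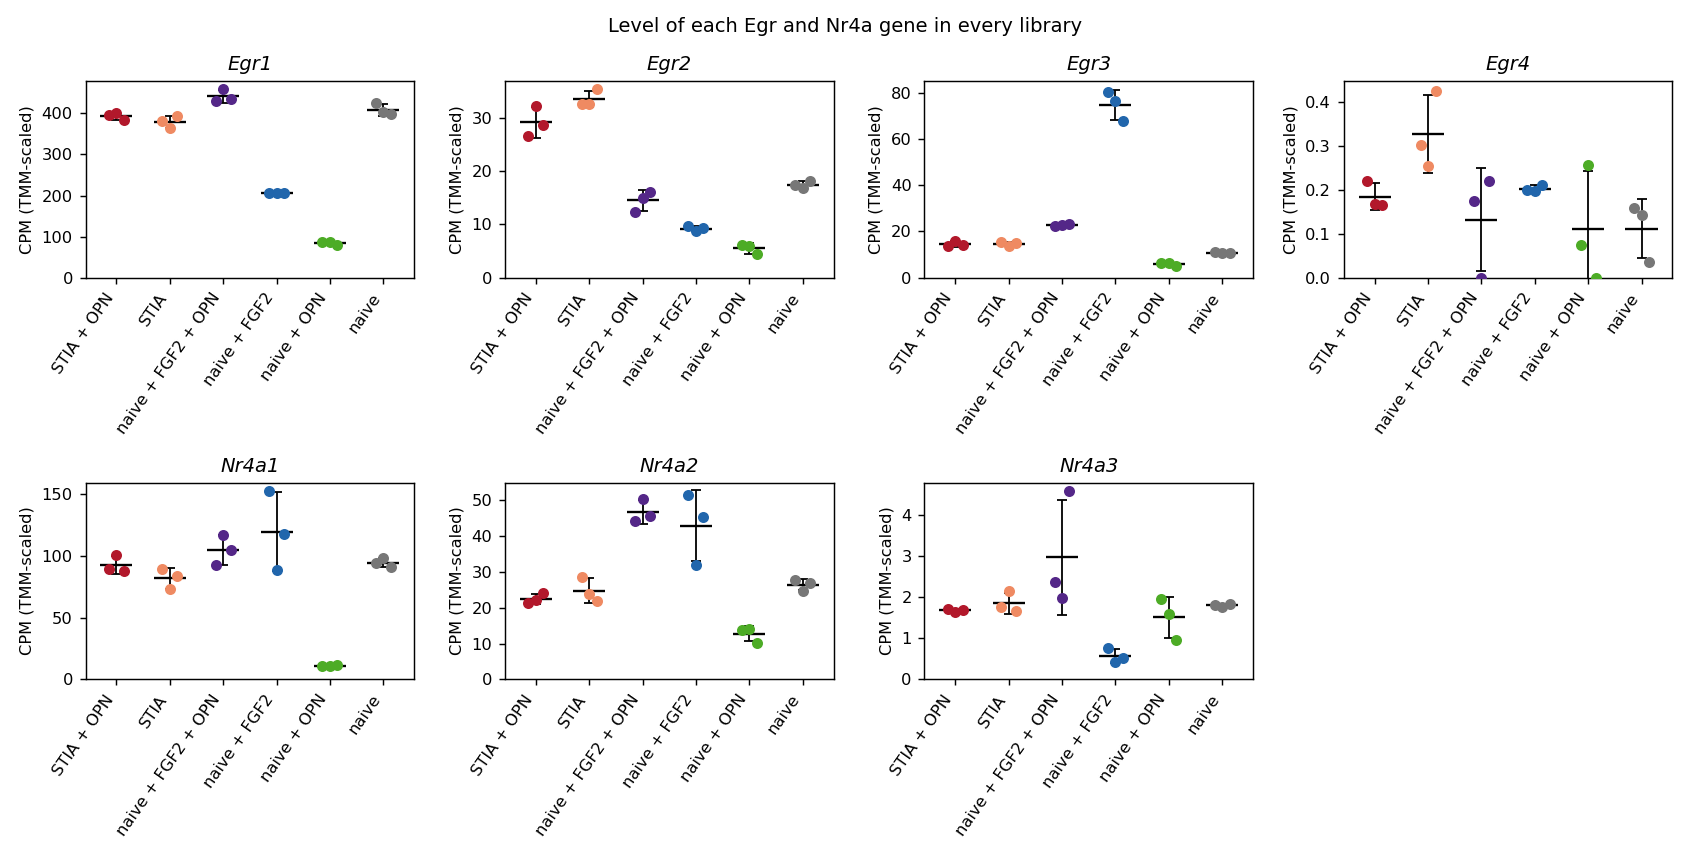
Level of each member in CPM on TMM-scaled library sizes (vertical axes, starting at 0, each with its own range) in the 3 libraries (points) of each of the 6 groups, with group mean and SD (bars; an SD that reaches below 0 is cut at the axis). Egr1 and Nr4a1 are lowest in naive cells with OPN, Egr3 is highest with FGF2 alone at 74.8 CPM on average, and Egr2 is highest in STIA cells.

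In naive cells OPN lowered 5 of the 6 tested members and raised none. The change was largest for Nr4a1 and Egr1. Egr1, the founding member of its family and a driver of growth factor and matrix genes, lies at chr18:34859823-34864984 on the plus strand (GRCm38). It measured 87.3, 86 and 78.9 CPM with OPN, against 426, 403 and 399 CPM in unstimulated naive cells. The groups were far apart, and the level with OPN was 4.87-fold lower (log2 fold change -2.28 ± 0.06 SE, edgeR adjusted p = 7.47e-18). Nr4a1, also known as Nur77, measured 10.5, 11.2 and 11.5 CPM with OPN, against 93.9, 98 and 91.1 CPM in unstimulated naive cells. It was 8.53-fold lower with OPN (-3.09 ± 0.16, edgeR adjusted p = 3.48e-09), and this was the lowest level of Nr4a1 in any group.

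Egr2, or Krox20, best known as the master factor of myelinating Schwann cells, measured 6.13, 5.95 and 4.38 CPM with OPN, against 17.3, 16.8 and 18.2 CPM in unstimulated naive cells (-1.65 ± 0.12, edgeR adjusted p = 1.03e-09). Egr3, a close relative of Egr1 that acts in muscle spindles and lymphocytes, measured 6.5, 6.33 and 5.19 CPM with OPN, against 11, 10.7 and 10.7 CPM without (-0.84 ± 0.10, edgeR adjusted p = 9.51e-07). For Nr4a2, or Nurr1, a factor that midbrain dopamine neurons depend on, the values were 13.8, 14 and 10.3 CPM with OPN, against 27.7, 24.8 and 26.9 CPM without (-1.05 ± 0.15, edgeR adjusted p = 3.73e-05). In each of these genes all 3 OPN libraries lay below all 3 unstimulated ones. OPN called 16.5% of all genes lower, and how many genes separated in this way was not counted. Nr4a3, or Nor1, measured 1.96, 1.6 and 0.97 CPM with OPN, against 1.8, 1.77 and 1.84 CPM without, and its groups overlapped (-0.24 ± 0.28, edgeR adjusted p = 0.562).

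Of all genes tested, OPN in naive cells called 31.7%, and 16.5% were called lower. The median log2 fold change was -1.35 over the 6 members and 0.00 over all genes. In bulk RNA, fewer cells making a transcript and less transcript per cell cannot be told apart. Sox10, the Schwann cell factor that stands upstream of Egr2 in nerve, averaged 4.74 CPM on plain library totals with OPN and 9.83 CPM in unstimulated naive cells (-1.06 ± 0.15, edgeR adjusted p = 1.36e-05). The 7 Schwann cell markers summed to 34.5 to 37.5 CPM with OPN and 35.9 to 38.1 CPM without, with none of the 7 at 0, and of the 6 tested 2 were called higher and 2 lower. The part of Schwann cell markers in the Egr2 result was not tested. The 10 fibroblast markers summed to 51674 to 59675 CPM with OPN and 69802 to 77895 CPM without, with 6 called lower and 0 higher. Of the 4 macrophage markers tested, 2 were called higher and 1 lower. The part of these shifts in the members' levels was not tested either.

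In STIA cells these falls were not seen. None of the 6 members was called when OPN was added to STIA cells, by edgeR, DESeq2 or limma-voom, and at an unadjusted p below 0.05 the counts were 0, 1 and 1. Egr1 measured 397, 402 and 384 CPM in STIA cells with OPN, against 381, 364 and 393 CPM in unstimulated STIA cells (0.06 ± 0.05, edgeR adjusted p = 0.691). Nr4a1 measured 89.2, 101 and 87.9 CPM with OPN, against 89.6, 72.8 and 83.3 CPM without (0.18 ± 0.14, edgeR adjusted p = 0.643). In both genes the ranges overlapped. The other 4 members had log2 fold changes between -0.20 and -0.01. Egr2 measured 26.5, 32.2 and 28.6 CPM with OPN, against 32.6, 32.6 and 35.3 CPM without, so that its groups just failed to overlap but it was not called (-0.20 ± 0.10, edgeR adjusted p = 0.37). OPN called 2.17% of all genes in STIA cells, so that few genes of any kind were called there.

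The difference between the OPN effects was itself tested. It was positive and called for 5 of the 6 members, in a contrast that called 22.3% of all genes. It was 3.27 ± 0.22 for Nr4a1 (edgeR adjusted p = 9.72e-08) and 2.34 ± 0.08 for Egr1 (edgeR adjusted p = 3.69e-15) on the log2 scale. For Egr2 it was 1.45 ± 0.15, for Nr4a2 0.91 ± 0.21 and for Egr3 0.82 ± 0.13. Nr4a3 differed by 0.10 ± 0.40 (edgeR adjusted p = 0.9). Set directly against each other, STIA cells with OPN had 8.37-fold more Nr4a1, 5.27-fold more Egr2 and 4.69-fold more Egr1 than naive cells with OPN. That comparison called 5 members, all higher in STIA cells, against 40% of all genes called and 21.1% called higher.

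**Figure D2:**
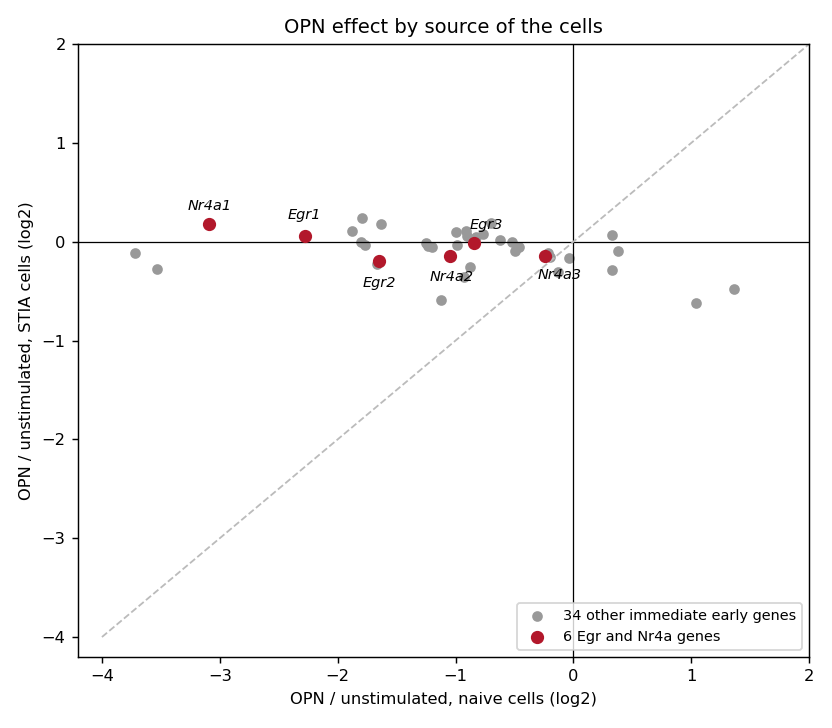
Log2 fold change of OPN over no stimulation in naive cells (horizontal axis) and in STIA cells (vertical axis) for the 6 tested Egr and Nr4a genes (red) and 34 other immediate early genes (grey), with the line of equal effects dashed. The members spread from -0.20 to 0.18 in STIA cells and from -3.09 to -0.24 in naive cells.

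FGF2 alone split the Egr family. Egr3 rose strongly, Egr1 and Egr2 fell, and the Nr4a genes also moved apart. Egr3 measured 80.2, 76.6 and 67.7 CPM with FGF2, against 11, 10.7 and 10.7 CPM in unstimulated naive cells, which was 6.93-fold higher (2.79 ± 0.09, edgeR adjusted p = 2.15e-17). Egr1 measured 207, 206 and 206 CPM with FGF2, against 426, 403 and 399 CPM without (-0.99 ± 0.06, edgeR adjusted p = 3.97e-13). Both differences were many times the spread between libraries. Egr2 measured 9.63, 8.69 and 9.27 CPM with FGF2, against 17.3, 16.8 and 18.2 CPM without (-0.92 ± 0.11, edgeR adjusted p = 2.2e-07). Beside it, Sox10 averaged 5.34 CPM with FGF2 and 9.83 CPM without (-0.96 ± 0.15, edgeR adjusted p = 9.02e-06), and the part of Schwann cell markers in the Egr2 result was not tested.

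Among the Nr4a genes, Nr4a2 measured 51.4, 32 and 45.2 CPM with FGF2, against 27.7, 24.8 and 26.9 CPM in unstimulated naive cells (0.69 ± 0.14, edgeR adjusted p = 0.000338). Nr4a3 measured 0.767, 0.43 and 0.515 CPM with FGF2, against 1.8, 1.77 and 1.84 CPM without, which was 3.16-fold lower on 13 to 23 counts per FGF2 library (-1.66 ± 0.33, edgeR adjusted p = 0.000174). Neither pair of groups overlapped. Nr4a1 measured 152, 88.4 and 118 CPM with FGF2, against 93.9, 98 and 91.1 CPM without, and the groups overlapped through the second FGF2 library (0.34 ± 0.14, edgeR adjusted p = 0.0535). Nr4a1 sat at the threshold: without that library it was called higher (0.52, adjusted p = 0.000254), as it was with DESeq2 (adjusted p = 0.0224) and limma-voom (adjusted p = 0.0465). The same library was also the lowest of its group in Nr4a2 and Nr4a3. FGF2 called 5 of the 6 members, 2 higher and 3 lower, against 57.1% of all genes, of which 29.1% were called higher and 28.1% lower. Most genes at large were called there, so the count alone says little about the members.

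**Figure D3:**
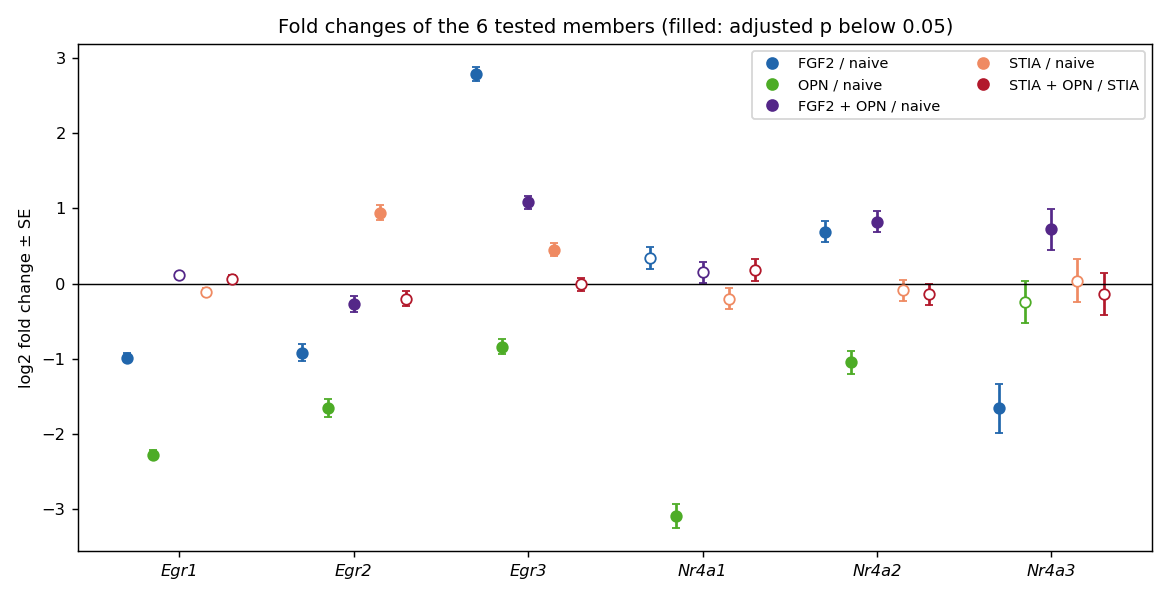
Log2 fold change with SE (vertical axis) of the 6 tested members in 5 comparisons, each shown as the first group over the second, with filled points at an adjusted p below 0.05 and open points above it. Nr4a1 and Egr1 lie lowest with OPN in naive cells, at -3.09 and -2.28, Egr3 lies highest with FGF2, at 2.79, and all 6 points of OPN in STIA cells are open.

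Compared with each other, FGF2 and OPN called all 6 members, with 5 higher and 1 lower with FGF2, against 61.6% of all genes. Egr3 differed most (3.63 ± 0.09, edgeR adjusted p = 6.5e-19), followed by Nr4a1 (3.43 ± 0.17, edgeR adjusted p = 3.03e-11). Nr4a3 was the member that was lower with FGF2 than with OPN (-1.42 ± 0.33, edgeR adjusted p = 0.000752).

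These shifts changed the make-up of both families per exon length. Egr3 supplied 27.1%, 26.3% and 23.9% of the summed Egr TPM in the FGF2 libraries, against 2.42%, 2.5% and 2.52% in unstimulated naive libraries. The ratio of Egr1 to Egr3 was 2.53, 2.64 and 2.99 with FGF2, 13.2, 13.3 and 14.9 with OPN and 38.2, 37 and 36.5 in unstimulated naive cells. The summed Egr TPM ran from 77.2 to 88.2 with OPN and from 369 to 405 in unstimulated naive cells. In the Nr4a family the ratio of Nr4a1 to Nr4a2 was 0.885, 0.921 and 1.29 with OPN, against 3.92, 4.57 and 3.93 in unstimulated naive cells. Naive cells with OPN were the only group of the 6 in which Nr4a2 matched or passed Nr4a1 in a library. The summed Nr4a TPM ran from 23.1 to 26.4 with OPN and from 128 to 134 without. STIA cells kept Egr1 to Egr3 ratios of 24.8 to 28.6 with OPN and of 24 to 26.1 without it.

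**Figure D4:**
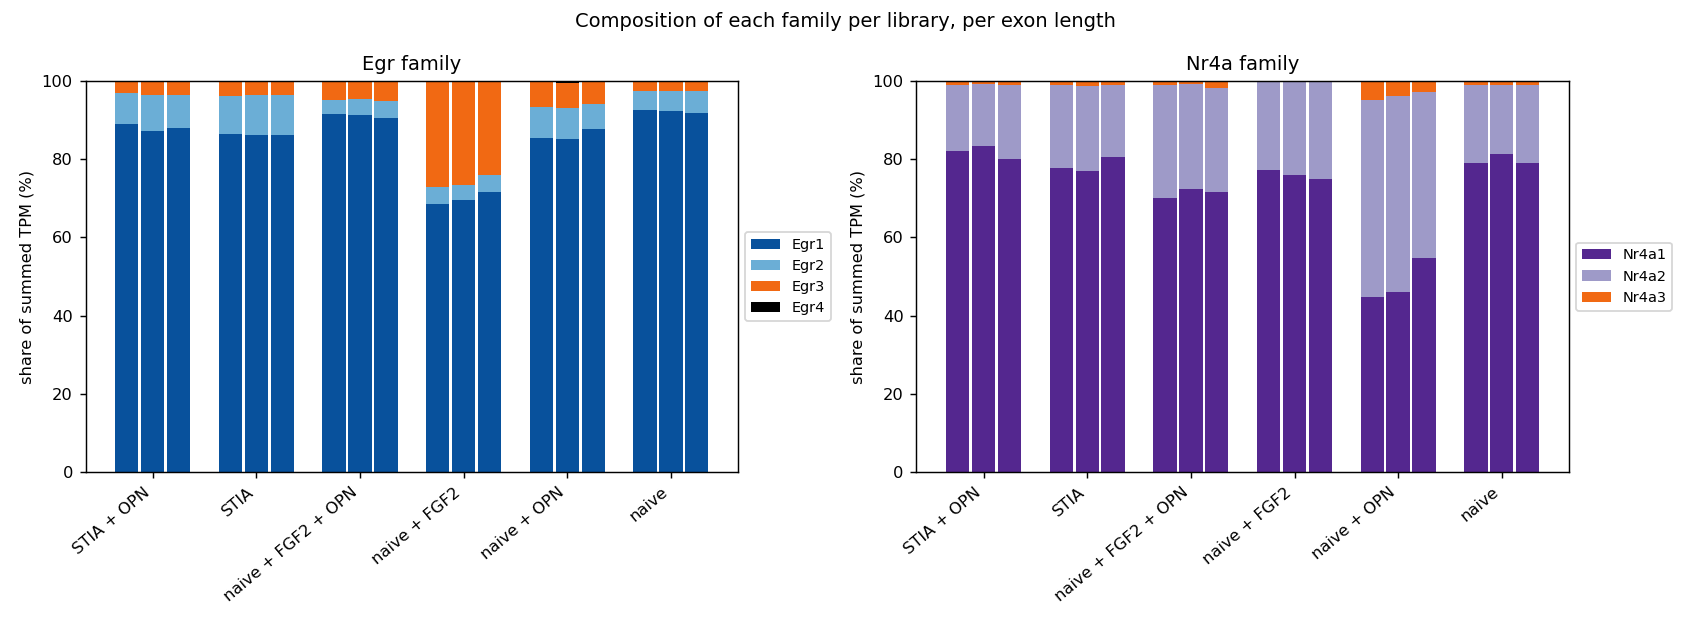
Share of each gene in the summed TPM of the Egr family (left) and the Nr4a family (right), in percent, with 1 stacked bar for each of the 18 libraries, grouped by condition. Egr3 takes 23.9% to 27.1% in the FGF2 libraries, and Nr4a1 takes 44.7% to 54.8% in naive libraries with OPN, against 70.0% to 83.3% in the other libraries.

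Given together, FGF2 and OPN did not lower Egr1 or Nr4a1 as OPN alone did. Egr1 measured 429.6, 459.8 and 436 CPM with both factors, against 426, 403 and 399 CPM in unstimulated naive cells (0.11 ± 0.05, edgeR adjusted p = 0.103). Nr4a1 measured 92.3, 117 and 105 CPM with both, against 93.9, 98 and 91.1 CPM without (0.15 ± 0.14, edgeR adjusted p = 0.41). Egr1 was not called although its groups did not overlap; DESeq2 called it (adjusted p = 0.0411). Egr3 stood between its levels under the single factors and remained raised over no stimulation, with 22.2, 23 and 23.2 CPM with both factors, against 11, 10.7 and 10.7 CPM without (1.08 ± 0.09, edgeR adjusted p = 1.12e-09). Nr4a2 measured 44.1, 50.4 and 45.6 CPM with both, against 27.7, 24.8 and 26.9 CPM without (0.82 ± 0.14, edgeR adjusted p = 9.29e-05). In both genes the groups lay clearly apart.

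The calls for Egr2 and Nr4a3 under both factors lay near the threshold. Egr2 measured 12.3, 15 and 16.1 CPM with both, against 17.3, 16.8 and 18.2 CPM in unstimulated naive cells (-0.27 ± 0.11, edgeR adjusted p = 0.0411). It was smaller and not called without FGF2 plus OPN replicate 1 (-0.16, adjusted p = 0.252) and with library totals alone in place of TMM scaling (-0.13, adjusted p = 0.334). Without unstimulated naive replicate 1 (-0.28, adjusted p = 0.0719) or replicate 3 (-0.24, adjusted p = 0.121) it kept about its size and was not called on the fewer libraries. Nr4a3 measured 2.36, 1.99 and 4.58 CPM with both, against 1.8, 1.77 and 1.84 CPM without (0.72 ± 0.27, edgeR adjusted p = 0.0318). The third library stood far above the other 2, and without it the difference was 0.27 (adjusted p = 0.389). Without unstimulated naive replicate 1, 2 or 3 the difference kept its size, at 0.71, 0.70 and 0.73, but was not called on the fewer libraries (adjusted p = 0.0737, 0.0745 and 0.0676). Both factors together called 4 of the 6 members, 3 higher and 1 lower, against 49.8% of all genes, with 23.7% higher and 26.1% lower. The count was 2 without unstimulated naive replicate 1 or replicate 3. With library totals alone the split of all genes was 34.9% higher and 16% lower, and the median over all genes was 0.136 on the log2 scale, against -0.01 with TMM scaling. The directions of the members did not change.

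The departure from simple addition was tested as an interaction of FGF2 and OPN, and it was called for all 6 members, positive in 5 and negative in 1, against 51.2% of all genes. Egr1 stood at 442 CPM on average with both factors, where adding the 2 single log2 effects gives 42.3 CPM (interaction 3.38 ± 0.08, edgeR adjusted p = 1.68e-18). Nr4a1 stood at 105 CPM, where addition gives 14 CPM (2.90 ± 0.22, edgeR adjusted p = 2.02e-08). Both genes were thus far above the sum of the single effects. Egr2 stood at 14.5 CPM where addition gives 2.9 (2.30 ± 0.16, edgeR adjusted p = 7.55e-11). Nr4a2 stood at 46.7 CPM where addition gives 20.6 (1.17 ± 0.20, edgeR adjusted p = 9.06e-05). Nr4a3 stood at 2.98 CPM where addition gives 0.477 (2.61 ± 0.43, edgeR adjusted p = 2.44e-05). Egr3 was the exception in sign, with 22.8 CPM where addition gives 41.7 (-0.88 ± 0.13, edgeR adjusted p = 4.25e-06).

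**Figure D5:**
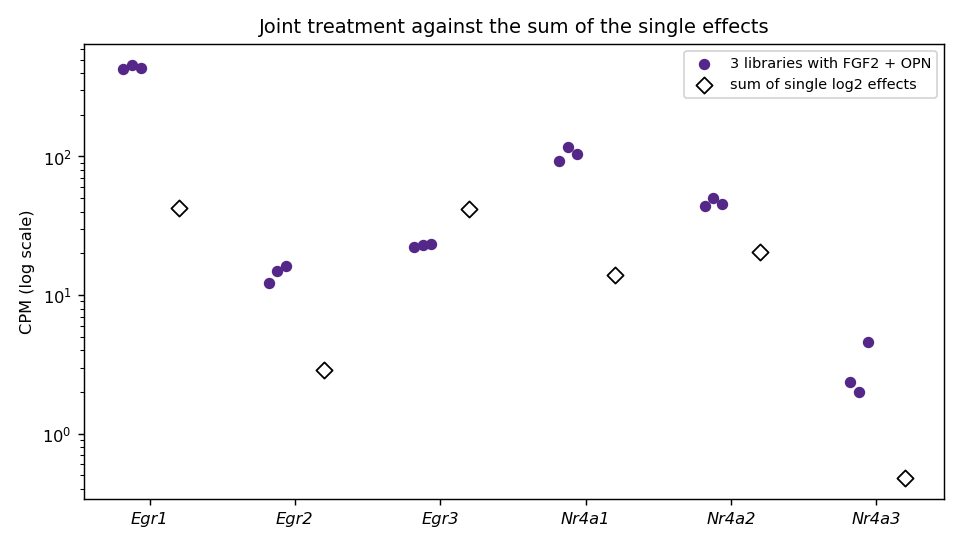
CPM (vertical axis, log scale) of the 6 tested members in the 3 naive libraries with FGF2 plus OPN (filled points), beside the level that follows from adding the log2 effects of FGF2 alone and OPN alone to the unstimulated level (open diamonds). Egr3 lies below its diamond, at 22.8 against 41.7 CPM on average, and the other 5 members lie above theirs.

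Adding OPN to FGF2 raised Egr1 2.14-fold (1.10 ± 0.06, edgeR adjusted p = 1.68e-13) and Nr4a3 5.19-fold (2.38 ± 0.32, edgeR adjusted p = 9.77e-07) over FGF2 alone. It raised Egr2 by 0.65 ± 0.11 on the log2 scale (edgeR adjusted p = 3.14e-05) and lowered Egr3 3.28-fold (-1.71 ± 0.08, edgeR adjusted p = 5.68e-14). Nr4a1 (-0.19 ± 0.14, edgeR adjusted p = 0.267) and Nr4a2 (0.12 ± 0.14, edgeR adjusted p = 0.459) were not called. Nr4a1 was called lower without FGF2 replicate 2 (-0.37, adjusted p = 0.00462) and its difference was 0.02 without FGF2 replicate 1. This comparison called 4 members, 3 higher and 1 lower, against 58.4% of all genes, with 27.3% higher and 31.2% lower. Adding FGF2 to OPN called all 6 members higher, led by Nr4a1 at 9.47-fold and Egr1 at 5.25-fold, against 56.5% of all genes called and 27.1% called higher. With library totals alone 36% of all genes were higher and 20.3% lower there, and the median over all genes was 0.118. Nr4a3 (0.96 ± 0.27, edgeR adjusted p = 0.00453) lost its call without FGF2 plus OPN replicate 3 (0.51, adjusted p = 0.0894). The single-factor and joint comparisons share their libraries and are therefore given side by side only.

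Between unstimulated STIA and naive cells, Egr2 and Egr3 were the members called, both higher in STIA cells. Egr2 measured 32.6, 32.6 and 35.3 CPM in STIA cells, against 17.3, 16.8 and 18.2 CPM in naive cells, a 1.92-fold difference without overlap (0.94 ± 0.10, edgeR adjusted p = 4.18e-07). Egr3 measured 15.6, 13.9 and 14.8 CPM in STIA cells, against 11, 10.7 and 10.7 CPM in naive cells (0.45 ± 0.09, edgeR adjusted p = 0.000439). Egr1 was within 0.11 ± 0.05 log2 units of its naive level, on the lower side (edgeR adjusted p = 0.115). Nr4a1 (-0.20 ± 0.14), Nr4a2 (-0.09 ± 0.14) and Nr4a3 (0.04 ± 0.28) were not called. The 2 calls of 6 stand against 36.8% of all genes called and 18.6% called higher, so that the count is close to that of genes at large. The Schwann cell markers summed to 27 to 31.8 CPM in STIA cells and 35.9 to 38.1 CPM in naive cells, and Sox10 averaged 8.79 CPM in STIA cells and 9.83 CPM in naive cells (-0.18 ± 0.14, edgeR adjusted p = 0.35). The 7 pericyte and smooth muscle markers summed to 353 to 417 CPM in STIA cells and 302 to 317 CPM in naive cells. Myh11 (2.16 ± 0.30) and Mcam (0.59 ± 0.08) were called higher and Notch3 (-0.56 ± 0.12) lower. Cspg4 made up most of this sum, averaging 319 CPM in STIA cells and 260.0 CPM in naive cells. It was not called (0.28 ± 0.18, edgeR adjusted p = 0.245). The 5 skeletal muscle markers summed to 57.3 to 74.9 CPM in STIA cells and 6.84 to 8.93 CPM in naive cells. Nearly all of the STIA sum was Acta1, which averaged 64 CPM there and was called higher (3.38 ± 0.34). Tnnt3 was not called (-0.45 ± 0.33, edgeR adjusted p = 0.295). Ckm, Myh4 and Myod1 averaged 0.012, 0 and 0.0553 CPM in STIA cells. The part of these marker shifts in the Egr2 and Egr3 results was not tested.

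Ordered by mean CPM, Egr1 ran from FGF2 plus OPN through unstimulated naive, STIA with OPN, unstimulated STIA and FGF2 down to OPN, and the libraries overlapped between unstimulated naive and STIA with OPN and between STIA with OPN and unstimulated STIA, but between no other neighbours. Egr2 ran from unstimulated STIA through STIA with OPN, unstimulated naive, FGF2 plus OPN and FGF2 to OPN, with no overlap between neighbours. Egr3 ran from FGF2 through FGF2 plus OPN, unstimulated STIA, STIA with OPN and unstimulated naive to OPN, and the STIA groups overlapped. For Nr4a1 all 5 groups other than OPN formed an overlapping chain, with FGF2 on top. Nr4a2 had FGF2 plus OPN and FGF2 overlapping on top, then unstimulated naive and the STIA groups overlapping, then OPN. For Nr4a3 the group below all others was FGF2, not OPN.

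The regulators and relatives of these genes were followed by lists. Of the NAB co-repressors, Nab2, itself an EGR target, averaged 125 ± 5.97 CPM with FGF2 and 68.3 ± 2.76 CPM in unstimulated naive cells (SD, n = 3; 0.87 ± 0.07, edgeR adjusted p = 4.28e-10). It was also called higher with FGF2 plus OPN (0.43) and in STIA cells (0.38). Nab1 was called higher with FGF2 alone (0.24 ± 0.06, edgeR adjusted p = 0.00105), at 78.8 ± 2.16 CPM against 66.9 ± 3.31 CPM. With OPN neither was called, and Nab2 averaged 65.2 ± 4.97 CPM there.

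Of 17 transcription factors and co-activators that act on these promoters, FGF2 raised 6 and lowered 2, OPN raised 2 and lowered 5, both factors raised 7 and lowered 3, and STIA cells had 3 higher and 1 lower than naive cells. Of all genes 57.1%, 31.7%, 49.8% and 36.8% were called in the same comparisons, so these counts do not set the list apart. Mef2a, a MEF2 factor, rose most with FGF2 (2.13 ± 0.11) and with OPN (0.58 ± 0.10), and Elk3, an SRF partner, rose with FGF2 (1.13 ± 0.06). Mef2c rose with OPN (0.32 ± 0.11). The largest falls were small: Crebbp and Crtc1, co-activators of CREB, fell by 0.22 and 0.18 with FGF2, and Crtc1 and Crtc2 each fell by 0.30 with OPN. Srf was higher in STIA cells (0.71 ± 0.10), as was Elk3 (0.26 ± 0.06), and Crtc1 was lower (-0.29 ± 0.07). OPN called none of the 17 in STIA cells by edgeR, where 2.17% of all genes were called.

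Of 34 other immediate early genes, OPN in naive cells lowered 25 and raised 2, with a median log2 fold change of -0.89, where 16.5% of all genes were called lower. The largest falls were Fos (-3.72 ± 0.10) and Fosb (-3.53 ± 0.29), subunits of AP-1, and the rises were Ccn2 (1.36 ± 0.21), a matricellular protein gene, and Arc (1.04 ± 0.20). Fos averaged 23.9 ± 1.75 CPM with OPN and 316 ± 10.2 CPM in unstimulated naive cells. Jun (-0.99 ± 0.08) and Junb (-1.25 ± 0.07), the partners of Fos, also fell. In STIA cells OPN called 1 of the 34, Csrnp1 (-0.59 ± 0.13, edgeR adjusted p = 0.0193), against 2.17% of all genes. The difference of OPN effects was called for 23, positive in 20 and negative in 3, against 22.3% of all genes. FGF2 raised 12 and lowered 15 of the 34, against 57.1% of all genes called, led upward by the ERK phosphatases Dusp2 (4.18 ± 0.62) and Dusp5 (3.30 ± 0.14) and downward by Gadd45b (-2.81 ± 0.16) and Ccn1 (-1.52 ± 0.16). Fos (-1.51 ± 0.09), Fosb (-0.90 ± 0.26) and Junb (-0.36 ± 0.07) fell with FGF2, and Jun rose (0.79 ± 0.08). With both factors 13 were higher and 11 lower, against 49.8% of all genes called. Fos (0.33 ± 0.09), Jun (0.52 ± 0.08) and Junb (0.61 ± 0.07) were among those higher. In STIA cells 12 were higher and 7 lower than in naive cells, against 36.8% of all genes called and 18.6% called higher. Npas4 (2.72 ± 0.46) and Ccn2 (1.80 ± 0.21) stood at the top and Socs3 (-0.68 ± 0.11) and Rgs2 (-0.49 ± 0.13) at the bottom.

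Of 19 genes reported in the literature as EGR targets, FGF2 raised 9 and lowered 10, OPN raised 7 and lowered 4, both factors raised 8 and lowered 8, and STIA cells had 12 higher and 3 lower. The shares of all genes called in these comparisons were 57.1%, 31.7%, 49.8% and 36.8%, and 18.6% were called higher in STIA cells. With FGF2 the ends were Ccnd1, a cyclin (3.41 ± 0.14), and Fgf2 itself (2.65 ± 0.19), against the coagulation factor receptor F3 (-3.98 ± 0.10) and Col1a1 (-3.18 ± 0.12). With OPN, Ccnd1 (1.00 ± 0.13) and Fgf2 (0.93 ± 0.18) rose while Pdgfb (-1.04 ± 0.18) and Vegfa (-0.62 ± 0.05), which encode growth factors, fell. In STIA cells Ptgs2, the inducible cyclooxygenase (1.77 ± 0.19), was higher, and Icam1 (-0.81 ± 0.17) and Col1a1 (-0.49 ± 0.11) were lower. The median log2 fold change of the list was 0.10 with OPN and -0.31 with FGF2. Egr1 fell with both, by -2.28 and -0.99, and Egr3 fell with OPN (-0.84) and rose with FGF2 (2.79). The part of the EGR factors in the levels of these genes was not tested. OPN called none of the 19 in STIA cells by edgeR, where 2.17% of all genes were called.

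Of 8 partners and co-repressor subunits of NR4A proteins, FGF2 raised Rcor1 (0.33 ± 0.07) and lowered the retinoid receptor Rxra (-0.34 ± 0.06). OPN lowered Sin3a (-0.26 ± 0.05) and Kdm1a (-0.19 ± 0.06) and raised none. STIA cells had 3 lower and none higher, with Rxra (-0.51 ± 0.06) and Rxrb (-0.21 ± 0.07) lowest, and both factors together raised 2 and lowered 1. Of 8 heat-shock genes, which rise with cell handling as early response genes do, OPN in naive cells lowered Hspa1a (-0.92 ± 0.13) and raised none. FGF2 raised 4, led by Hspa1b (1.57 ± 0.13) and Hspa1a (0.67 ± 0.12), and lowered Hsph1 (-0.26 ± 0.07), and both factors raised 3 and lowered 2. STIA cells had 6 of the 8 higher, led by Hspa1b (1.20 ± 0.13) and Hspa1a (0.68 ± 0.12), and OPN lowered Hspa1a (-0.54 ± 0.12) and Hspa1b (-0.50 ± 0.12) in STIA cells. For both lists, the shares of all genes called were 57.1% with FGF2, 31.7% with OPN and 49.8% with both factors. Between unstimulated STIA and naive cells 36.8% were called, with 18.6% of all genes higher in STIA cells. OPN in STIA cells called 2.17%. Hspa1a and Hspa1b are near-identical copies, and reads may be split between them. The part of cell handling in the members' levels was not tested.

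The genes whose log2 CPM ran most like a member's over the 18 libraries were found among 10564 genes that averaged at least 5 CPM. Libraries of a group share their treatment, so these correlations describe the 6 groups more than 18 independent points. Egr1 was followed most closely by Fos (Pearson r = 0.994), Ier2 (0.975), Il4ra and Fosb (both 0.964) and Nfkbiz (0.953), of which all but Il4ra are in the list of 34 other immediate early genes. Nr4a1 was followed by Dusp1 (0.974), Midn (0.972), Tmem164 (0.962), Trib1 (0.954) and Irf2bpl (0.951). Egr3 ran with Dusp6 (0.988), an ERK phosphatase, and with Nxph3 (0.98), Synj2 and Akr1b8 (both 0.979) and Wipf1 (0.978). Egr2 ran with Kctd17 (0.977), Gcnt2 (0.974), Thsd1 (0.965), Camk2g (0.952) and Mcam (0.949), an adhesion molecule of pericytes and other mural cells. For Nr4a2 they were Tnfrsf21 (0.978), Cic (0.957), Fam189b (0.946), Mms19 (0.945) and Ttc7 (0.94). Nr4a3 had the loosest set, with Ifi211 (0.923), Pam16 (0.916), Uap1 (0.906), Mgat1 (0.896) and Snai1 (0.894).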

How the data were processed

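RNA of sorted paw fibroblasts was sequenced in 18 libraries by a service provider, per the labels' protocols. The deposited values are raw gene counts; the authors used STAR and featureCounts on GRCm38 (mm10), per the submitters' processing notes. The sources used here state no tool version, strand setting or rule for reads with several positions. The deposited Length column, the summed exon length of a gene, was used for TPM. Of 32285 identifiers 32158 had a symbol in GENCODE M21, and the 127 others took 0.029% of counts.

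Counts were fitted in R 4.3.3 with edgeR 4.0.16: filterByExpr (15072 genes), TMM scaling, 1 mean per group, robust quasi-likelihood over all 18 libraries (biological coefficient of variation 8%), and 11 two-sided contrasts adjusted by Benjamini-Hochberg and called below 0.05. The model was tested on simulated data. SEs were derived from each contrast's F statistic and fold change. The interaction subtracts the OPN effect without FGF2 from that with FGF2. Summed and mean marker levels are CPM on plain totals, and all other CPM use TMM. Correlations were computed on log2 CPM (prior count 2). Replicates of a group differed beyond sampling noise in all 18 pairs (chi-square per degree of freedom 4.42 to 40.7). Correlations of the deviations of same-numbered replicates across groups ran from -0.104 to 0.199, and 2 of 45 lay above 0.1. These values show no strong pairing by number. They cannot exclude a shared animal or day, since replicates may be numbered differently in each group. Promoter windows are RefSeq's for GRCm38.p6, searched on both strands. Egr1 and Egr3 had no window in the table used.

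The members and gene lists were chosen with earlier results of these data known. All members were named; from each list the 2 largest rises and falls among genes called with FGF2, with OPN and in STIA cells, both NAB genes, and Fos, Fosb, Jun and Junb; and the 5 genes most like each member. A gene that this rule names is not reported here. Alternatives were library totals alone, RLE scaling, DESeq2 1.42.0, limma-voom (limma 3.58.1), no low-count filter, at least 1 CPM in 3 libraries, a replicate block, only the groups compared, and each library left out.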

Additional observations from a re-analysis of the deposited data

Results flagged for a closer look

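The effect of OPN differed with the source of the cells, by a test of the difference itself (edgeR's quasi-likelihood test, Benjamini-Hochberg adjusted, 3 libraries per group). STIA minus naive, the log2 difference was 3.27 for Nr4a1 (adjusted p = 9.72e-08), 2.34 for Egr1 (adjusted p = 3.69e-15), 1.45 for Egr2 (adjusted p = 7.41e-07), 0.91 for Nr4a2 (adjusted p = 0.00379) and 0.82 for Egr3 (adjusted p = 8.65e-05). The test of the difference called 22.3% of all genes. In all 5 genes every naive library with OPN lay below every unstimulated naive library. OPN called 16.5% of all genes lower in naive cells, and how many of them separated in this way is not given here.

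In naive cells the effect of OPN also differed with the presence of FGF2. With FGF2 minus without, the log2 difference was 3.38 for Egr1 (adjusted p = 1.68e-18), 2.90 for Nr4a1 (adjusted p = 2.02e-08), 2.61 for Nr4a3 (adjusted p = 2.44e-05), 2.30 for Egr2 (adjusted p = 7.55e-11), 1.17 for Nr4a2 (adjusted p = 9.06e-05) and -0.88 for Egr3 (adjusted p = 4.25e-06), again by edgeR's quasi-likelihood test. Egr3 alone of the 6 was lowered by OPN more in the presence of FGF2 (-1.71) than in its absence (-0.84). The interaction called 51.2% of all genes. Both contrasts use the naive libraries with OPN and without stimulation.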

How the results depend on the processing

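Over 66 gene results of the 6 tested members, 8 other settings gave the same direction and side of the threshold in 515 values, a call gained in 10 and a call lost in 3, with no change of direction. The gains were Nr4a1 with FGF2 against no stimulation (library totals alone 0.42, DESeq2 0.33, limma-voom 0.31, no low-count filter 0.34, at least 1 CPM in 3 libraries 0.35), Egr1 with both factors (library totals alone 0.25, DESeq2 0.12), Nr4a1 in STIA against naive cells (no filter and only the groups compared, both -0.20) and Nr4a1 with both factors against FGF2 (no filter -0.20). The losses were Egr2 with both factors (library totals alone -0.13, only the groups compared -0.25) and Nr4a3 with both factors (limma-voom 0.61). The replicate block gave the same number of calls in all 11 comparisons, for instance 5 with OPN in naive cells and 0 in STIA cells. The labels do not state that replicate numbers pair the samples. Leaving out each of 18 libraries in turn kept direction and call in 1169 values, ended a call in 8, added 3 and turned 8. With both factors against no stimulation the number called ran from 2 to 4. The values that turned were uncalled: the range over left-out libraries was -0.07 to 0.11 for Nr4a3 in STIA against naive cells, -0.08 to 0.03 for Egr3 with OPN in STIA cells (with 0.03 and 0.00 among the values that turned), -0.37 to 0.02 for Nr4a1 and -0.05 to 0.27 for Nr4a2 with both factors against FGF2, -0.08 to 0.37 for Nr4a3 in STIA against naive cells with OPN, and -0.12 to 0.33 for Nr4a3 in the difference of OPN effects. The members with the fewest counts were Nr4a3, at 13 to 145 per library, and Egr4, at 0 to 12. The causes of these changes were not tested.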
